A study of Mus musculus with 15 samples.

Results

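Accessible chromatin of wild-type mouse CD4+ T cells was compared after 72 h of activation in culture and at 0 h, before treatment. The comparison rested on 8 of the 15 ATAC-seq libraries of the series, 4 from activated IRF5+/+ cells (72 h) and 4 from untreated IRF5+/+ cells (0 h), chosen by genotype and time in their titles. The other 7 libraries came from IRF5-/- cells, 4 at 72 h and 3 at 0 h, and served only for a comparison with the wild-type changes. The labels give the cells as T cells of type CD4+, but not the activating agent, the culture conditions or the age of the mice. They also do not say whether the libraries of 1 group are from different mice, so a p-value here covers the spread among libraries, some or all of which can be technical. Activation cannot be told apart from 72 h in culture, since untreated cells were profiled only at 0 h.

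In ATAC-seq the Tn5 transposase cuts DNA that is not wrapped in nucleosomes and leaves sequencing adapters there, so that fragments pile up over promoters, enhancers and other open sites. A resting CD4+ T cell is kept quiescent and circulating by transcription factors such as FOXP1, BACH2 and TCF7 and by receptors such as S1PR1 and CCR7. Signals from the T cell receptor and CD28 switch on NFAT, AP-1 and NF-κB, start growth and division, and open sites at effector genes such as those of cytokines.

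The 8 peak lists were merged where peaks overlapped by at least 1 bp, which gave 99251 regions. The height of a region in a library was the highest fragment pileup of its peaks divided by the library's M of fragments left after filtering, here written FPM, and 0 where the authors' list had no peak. Peaks were called in all 8 libraries at 27041 regions (27.2% of the union). At these regions every height is measured, so no fold rests on an uncalled peak, but regions that opened from below the threshold or closed to below it are not among them. The filter thus limits how far a low region can rise or fall and still be in the set. A further 23300 regions were called in 1 library only. Per the file headers, library 4 of both times came from an alignment numbered 5. Each library had 24.7 to 27.6 M fragments after filtering at 72 h, against 22.4 to 29.0 M at 0 h (two-sided exact permutation, p = 0.714). The duplicate rate was 0.15 to 0.17 at 72 h and 0.17 to 0.29 at 0 h (exact permutation p = 0.0571). The fragment size was 148 to 168 bp at 72 h and 151 to 182 bp at 0 h (exact permutation p = 0.114).

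Defining genes of T cells were open in every library. The promoter or gene boundary of each of 8 T cell markers, among them Cd3e, Cd4, Cd28 and Lck, carried a peak in all 8 libraries, with a summed height of 16.3 to 21.1 FPM at 72 h and 43.1 to 53.7 at 0 h. For CD8 and NK cells, 4 of 8 markers had a peak in some library, with sums of 2.07 to 3.92 at 72 h and 4.33 to 4.91 at 0 h, and Cd8a, Klrb1c, Ncr1 and Klrd1 were at 0 in all 8. The lower sum at 72 h came from Cd8b1, which averaged 0.679 at 72 h and 3.18 at 0 h. Klre1, Gzma and Eomes went the other way, with averages of 0.780, 0.684 and 1.14 at 72 h and 0, 0.545 and 0.930 at 0 h. For B cells, 4 of 9 markers had a peak, with sums of 7.66 to 10.5 at 72 h and 4.19 to 5.79 at 0 h, while Ms4a1, Cd79a, Cd79b and Pax5 were at 0 in all 8 libraries. Most of the B cell sum came from Cr2, which averaged 5.15 at 72 h and 2.63 at 0 h, and Ebf1, which averaged 3.19 at 72 h and 1.56 at 0 h. For myeloid cells, 6 of 10 markers had a peak, with sums of 5.33 to 7.20 at 72 h and 8.08 to 13.02 at 0 h, and Csf1r, Lyz2, Adgre1 and Fcgr1 were at 0. For erythroid cells, 2 of 4 had a peak, with sums of 3.68 to 5.99 at 72 h and 5.85 to 7.97 at 0 h, and Gata1 and Alas2 were at 0. What these sums contribute to the changes below was not tested. In bulk cells a lower height in FPM can come from fewer cells with an open site or from less access per cell. Since FPM is a share of a library's fragments, it can also come from more fragments elsewhere. These cannot be told apart.

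Activated cells had more peaks, and the sites they shared with untreated cells were lower. Libraries at 72 h had 66068 ± 4618 peaks and libraries at 0 h 45746 ± 3960 (SD, n = 4 each), covering 37.0 ± 1.66 Mb at 72 h and 30.8 ± 2.83 Mb at 0 h. The median log2 height over the 27041 shared regions was 1.14 ± 0.147 at 72 h and 1.73 ± 0.173 at 0 h, a difference of −0.59. In each of these values the 4 activated libraries lay apart from the 4 untreated ones (two-sided exact permutation p = 0.0286, adjusted p = 0.0286, the smallest that 4 against 4 allows).

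**Figure D1:**
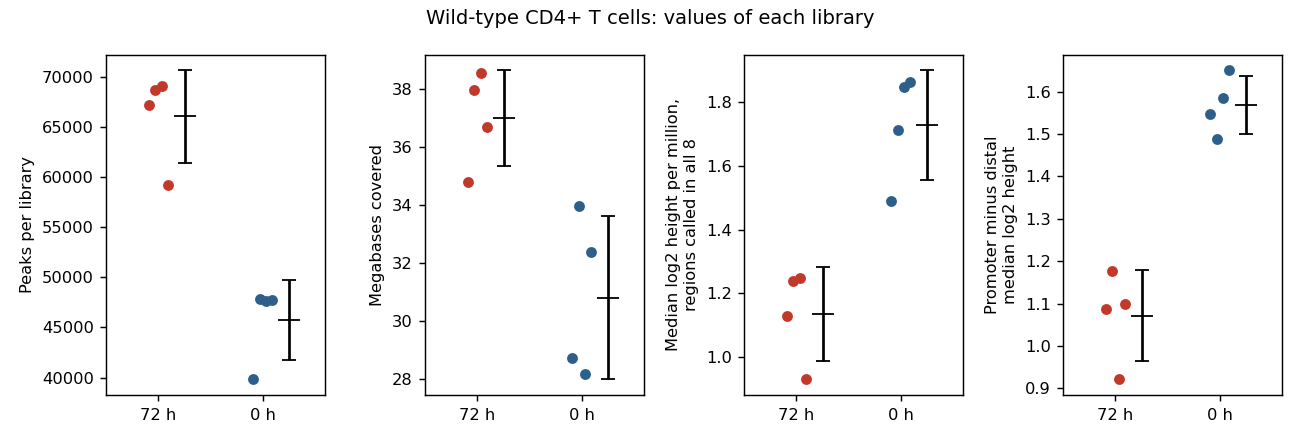
Peaks per library, megabases covered, median log2 height over regions called in all 8 libraries, and promoter minus distal median log2 height are plotted for each wild-type library at 72 h (red) and 0 h (blue), with the mean and SD in black. The axes do not start at 0. The 4 libraries at 72 h lie above those at 0 h for peaks and megabases and below them for both log2 values.

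The size of the changes in the shared regions depended on how the common drop was treated. In FPM, 3140 of the 27041 regions rose (11.6%) and 17349 fell (64.2%) by limma with Benjamini-Hochberg adjustment at 0.05, and the median log2 fold was −0.69. When each library was centred on its median over these regions, which adds 0.59 on the log2 scale (1.51-fold) to every fold, 8029 rose (29.7%) and 10589 fell (39.2%), with a median of −0.10. All 3140 regions higher in FPM were also higher when centred, and all 10589 lower when centred were also lower in FPM. Of the rest, 6691 regions were lower in FPM only and 4820 were higher only when centred, and 69 regions were lower in FPM and higher when centred. Heights in FPM give the share of a library's fragments at a site, and the centred scale gives a site's height against the other shared sites. Results are therefore given on both scales.

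Large changes occurred in both directions. In FPM, 1216 regions rose at least 2-fold (4.5%) and 8200 fell at least 2-fold (30.3%), and 175 rose (0.647%) and 837 fell (3.10%) at least 4-fold. Relative to the library median, 3210 regions rose (11.9%) and 1928 fell (7.13%) at least 2-fold, and 607 rose (2.24%) and 203 fell (0.751%) at least 4-fold. So in FPM the falls outnumbered the rises at both sizes, and on the centred scale the rises outnumbered the falls. Every height at 72 h was above every height at 0 h in 2520 regions (9.32%) and below in 15453 (57.1%).

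Sites at gene starts lost more height than sites far from them. Within 1 kb of the start of a protein-coding gene, 5.11% of 10607 regions rose and 80.3% fell in FPM, with a median log2 fold of −0.85. Over 10 kb from any start, 17.3% of 11487 regions rose and 51.8% fell, with a median of −0.45. Relative to the library median, 16.7% of the near regions rose and 51.6% fell (median −0.26), while 39.9% of the distant ones rose and 30.1% fell (median 0.14). In heights, the median of a near region was 3.4 FPM at 72 h and 6.29 at 0 h, and that of a distant region 1.63 at 72 h and 2.11 at 0 h. Within each library, the median log2 height of near regions minus that of distant ones was 1.07 ± 0.108 at 72 h and 1.57 ± 0.0679 at 0 h (SD, n = 4 each). A constant factor for a library cancels out of this difference of −0.50, and the groups did not overlap (exact permutation p = 0.0286, adjusted p = 0.0286). The limit that calling sets on the folds of low regions does not cancel, since distant regions were lower, and its part was not tested. Among distant regions, those inside gene bodies and those outside had like medians in FPM, −0.47 over 5952 regions and −0.43 over 5535.

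**Figure D2:**
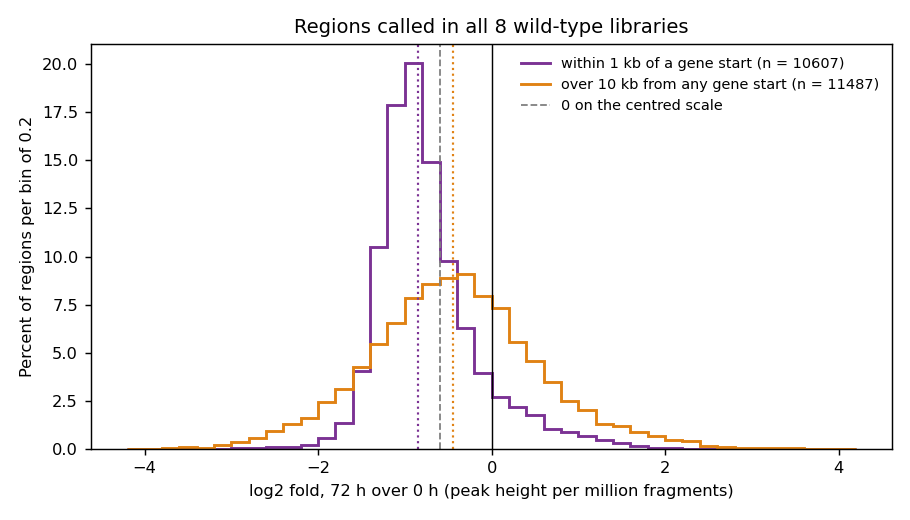
Percent of regions (vertical axis) by log2 fold of height in FPM, 72 h over 0 h, in bins of 0.2, for regions within 1 kb of a gene start (purple) and over 10 kb from any start (orange). Dotted lines mark the medians of −0.85 and −0.45, and the dashed line marks the fold that is 0 after centring. Regions near gene starts form a narrow peak to the left of the wider distribution of distant regions.

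The fold also followed the height. With the shared regions in 5 equal classes by mean height, the median log2 fold in FPM was −0.13 in the lowest class (median height 1.04), −0.35, −0.65 and −0.91 in the next, and −0.99 in the highest (median height 7.28). On the centred scale the lowest class stood at 0.46 and the highest at −0.40, and 51.9% of the lowest class rose, against 5.95% of the highest. Of the highest class 79.1% lay within 1 kb of a gene start and of the lowest 15.2%, so place and height moved together, and their parts were not told apart. A low region can fall only to the calling threshold and stay among the shared regions, so the filter also limits falls in the low classes. How much of the trend this makes was not tested. The chromosomes differed less, with medians in FPM between −0.59 on chromosome 8 and −0.85 on chromosome 19.

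The regions with the largest rises had low peaks at 0 h, of 0.435 to 1.23 FPM. The 12 largest, taken from those with groups that did not overlap and 1 per nearest gene, rose between 2.94 and 3.89 on the log2 scale in FPM. The first was a region inside Gstcd (chr3:133078047-133078919, mm10), 12906 bp from its start. It had heights of 9.20, 9.62, 9.95 and 7.70 FPM at 72 h and 0.580, 0.552, 0.647 and 0.673 at 0 h. The groups lay far apart, with a 14.9-fold rise of the geometric mean (log2 fold 3.89 ± 0.19 SE; centred 4.49, limma adjusted p = 4.89e-31). A region inside Itga2, which encodes the α2 chain of a collagen-binding integrin, had 8.35, 8.53, 9.46 and 7.85 at 72 h and 0.535, 0.931, 0.850 and 0.752 at 0 h. This was an 11.4-fold rise (centred log2 fold 4.10, limma adjusted p = 1.66e-29), and every activated library was above every untreated one.

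Tet2, Ezh2 and Lcp2 were among the other nearest genes. A region 81912 bp from the start of Tet2, which encodes an enzyme that oxidises methylated cytosine, had 9.36, 8.24, 9.88 and 7.70 at 72 h and 0.625, 1.21, 0.769 and 1.23 at 0 h. It lay outside the gene at chr3:133626302-133627409 and was 9.53-fold higher (centred log2 fold 3.85, limma adjusted p = 8.05e-28). A region 25843 bp from Ezh2, the catalytic histone methyltransferase of Polycomb complex PRC2, had 6.57, 7.95, 7.58 and 6.61 at 72 h and 0.669, 0.966, 0.809 and 1.19 at 0 h, 8.06-fold higher. A region 64761 bp from Lcp2, the gene of the adaptor SLP-76 downstream of the T cell receptor, had 4.34, 5.73, 5.40 and 4.08 at 72 h and values between 0.566 and 0.594 at 0 h, 8.32-fold higher. The remaining nearest genes were Krtap28-13, Hmcn2, Prokr2, Vrk2, Phf20, Clec3a and Lrch1, with rises of 7.66-fold to 10.9-fold. The nearest gene need not be the gene a site acts on, and no expression was measured.

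The largest falls left sites that had been tall at 0 h at 2.07 FPM or less. The 12 largest, chosen like the rises from regions with groups that did not overlap, fell between 3.55 and 4.12 on the log2 scale in FPM. A region 96896 bp from Tle4, which encodes a Groucho-family corepressor, had 1.14, 0.762, 0.689 and 0.661 at 72 h and 12.3, 13.3, 14.5 and 15.1 at 0 h. It was 17.4-fold lower (log2 fold −4.12 ± 0.18 SE; centred −3.53, limma adjusted p = 8.05e-28). S1pr1 encodes the sphingosine phosphate receptor with which T cells leave lymph nodes. A region 27040 bp outside this gene (chr3:115682388-115683393) had 1.26, 1.23, 1.19 and 1.09 at 72 h and 15.5, 15.6, 16.9 and 17.2 at 0 h, 13.7-fold lower (centred log2 fold −3.18, limma adjusted p = 1.11e-29). The 4 libraries of each time were close to each other here.

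Tox, Ifngr1 and Pde2a were the nearest genes of further falls among the 12. A region inside Tox, an HMG-box factor needed for CD4+ T cell development, had 1.38, 1.27, 1.57 and 1.17 at 72 h and 14.2, 14.8, 18.2 and 19.4 at 0 h, 12.3-fold lower. A region 13060 bp from Ifngr1, the ligand-binding chain of the interferon-γ receptor, had 0.649, 0.798, 0.842 and 0.583 at 72 h and 8.70, 7.97, 9.38 and 8.67 at 0 h, 12.2-fold lower. A region inside Pde2a, a cyclic nucleotide phosphodiesterase, had 0.932, 1.09, 1.23 and 0.817 at 72 h and 13.9, 13.2, 14.4 and 15.2 at 0 h, 14.1-fold lower. In all 3 the untreated libraries were above 7 in FPM and the activated ones below 2. The other nearest genes were Virma, Trpc5os, Galnt2, Paqr7, Rsu1, Dnajc5b and Fnbp1, with falls of 11.7-fold to 13.7-fold. Of these, the region at Dnajc5b was the tallest at 0 h, with 2.07, 1.6, 1.99 and 1.83 at 72 h and 19.1, 21.3, 24.3 and 23.1 at 0 h.

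**Figure D3:**
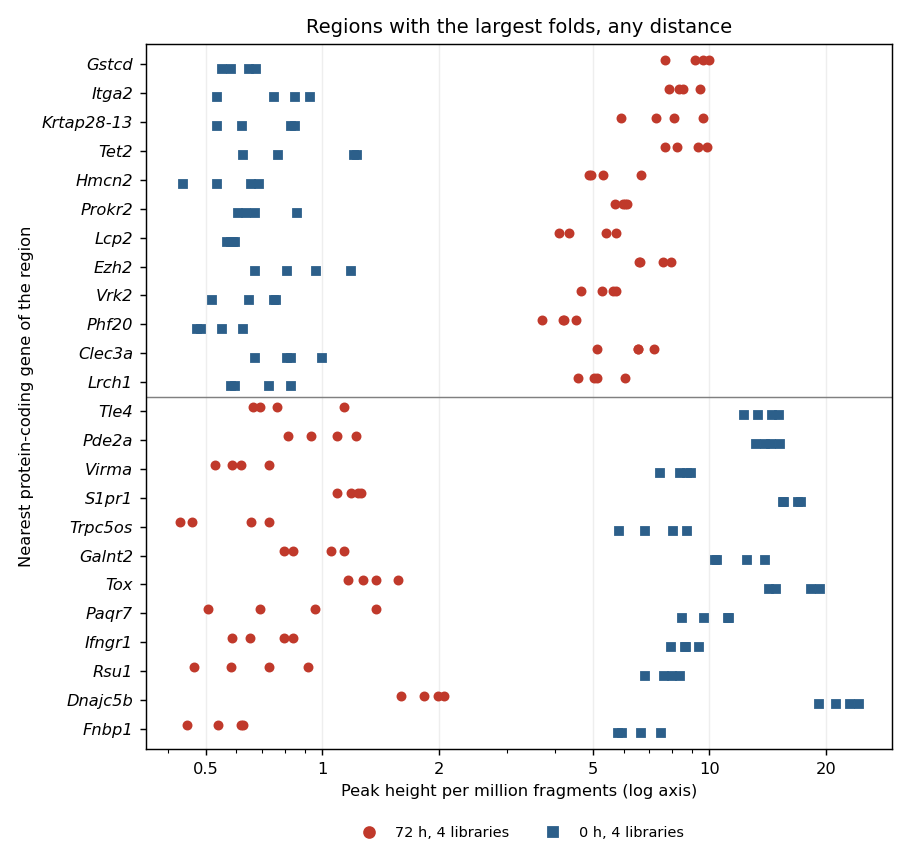
Heights in FPM on a log axis in each of the 4 libraries at 72 h (red circles) and 0 h (blue squares) for the 12 largest rises (above the grey line) and 12 largest falls (below it), named by nearest protein-coding gene. The groups do not overlap in any of the 24, which the choice of regions required.

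At gene starts the largest rises in FPM were smaller than the largest falls in FPM. The 8 largest rises within 1 kb of a start lay between 1.89 and 2.17 on the log2 scale and the 8 largest falls between −3.61 and −2.52. When centred, the same rises lay between 2.48 and 2.76, and the falls between −2.29 and −1.93 except Paqr7 at −3.02. Promoter letters are shown for 2 genes of each direction whose start lay inside the changed region. The RefSeq windows cover the 250 bases before the start on GRCm38.p6, the assembly behind mm10, written 5′ to 3′ on the strand of the gene. Capitals mark matches to the motifs searched, which are listed below.
Dhrs9, plus strand, chr2:69380212-69380461: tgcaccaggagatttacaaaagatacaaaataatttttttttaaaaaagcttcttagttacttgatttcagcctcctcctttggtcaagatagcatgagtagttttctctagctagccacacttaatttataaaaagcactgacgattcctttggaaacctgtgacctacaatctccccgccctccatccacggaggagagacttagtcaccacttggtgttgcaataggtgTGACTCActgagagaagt
Tgfb2, minus strand, chr1:186705990-186706239: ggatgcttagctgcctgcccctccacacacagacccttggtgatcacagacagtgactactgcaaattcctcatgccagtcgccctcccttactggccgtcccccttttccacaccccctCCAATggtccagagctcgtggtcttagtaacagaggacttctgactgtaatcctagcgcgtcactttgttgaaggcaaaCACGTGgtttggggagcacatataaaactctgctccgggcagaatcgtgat
Cnr2, plus strand, chr4:135911430-135911679: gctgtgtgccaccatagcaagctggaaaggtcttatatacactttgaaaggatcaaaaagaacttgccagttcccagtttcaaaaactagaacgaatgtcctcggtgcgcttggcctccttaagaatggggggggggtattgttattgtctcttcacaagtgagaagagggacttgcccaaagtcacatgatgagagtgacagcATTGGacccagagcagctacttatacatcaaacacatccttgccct
Mbnl1, plus strand, chr3:60500929-60501178: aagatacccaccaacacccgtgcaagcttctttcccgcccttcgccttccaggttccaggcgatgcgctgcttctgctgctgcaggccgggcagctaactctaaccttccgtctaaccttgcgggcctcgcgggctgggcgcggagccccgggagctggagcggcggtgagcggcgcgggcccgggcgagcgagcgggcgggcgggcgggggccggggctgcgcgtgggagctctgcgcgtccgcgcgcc

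The promoter of Dhrs9, which encodes a retinol dehydrogenase of the short-chain family, had heights of 6.81, 7.15, 6.70 and 4.74 at 72 h and 0.892, 1.97, 1.70 and 1.27 at 0 h. It rose 4.5-fold (log2 fold 2.17 ± 0.18 SE; centred 2.76, limma adjusted p = 2.46e-22). Its window holds the AP-1 letters TGACTCA, starting 18 bases before the gene start. The promoter of Tgfb2, the gene of the cytokine TGF-β2, had 2.96, 2.65, 2.68 and 1.98 at 72 h and 0.580, 0.552, 0.485 and 0.792 at 0 h. It rose 4.29-fold (centred log2 fold 2.69, limma adjusted p = 4.02e-18), and its window holds an E-box CACGTG and a CCAAT. The promoter of Ltbp1, which encodes a protein that binds latent TGF-β, had 1.82, 2.58, 2.18 and 1.91 at 72 h and 0.446, 0.690, 0.364 and 0.673 at 0 h, 4.01-fold higher. The promoter of Tnfsf13b, the gene of the B cell survival factor BAFF, had 4.13, 3.85, 4.36 and 2.99 at 72 h and 0.714, 0.759, 1.21 and 1.19 at 0 h, 4.04-fold higher. In each of these 4 promoters the lowest activated library exceeded the highest untreated one, which the choice of regions required. The other rises were at Olfr525, Fam171a1, Gnao1 and Slc24a3 and lay between 3.70-fold and 4.22-fold.

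The promoter of Cnr2, the peripheral cannabinoid receptor gene, had 0.689, 0.689, 0.766 and 0.661 at 72 h and 4.28, 4.83, 5.87 and 5.94 at 0 h. It was 7.40-fold lower (log2 fold −2.89 ± 0.20 SE; centred −2.29, limma adjusted p = 9.36e-19). Its window holds CCAAT on the opposite strand, read as ATTGG, starting 46 bases before the start. The promoter of Mbnl1, a regulator of RNA splicing, had 2.11, 2.43, 1.84 and 1.98 at 72 h and 10.9, 11.8, 14.1 and 14.7 at 0 h, 6.14-fold lower (centred log2 fold −2.03, limma adjusted p = 1.16e-22). No searched motif occurs in its window. Sit1, which encodes an adaptor that dampens T cell receptor signalling, had 1.14, 1.09, 0.881 and 0.933 at 72 h and 5.80, 5.38, 7.56 and 7.40 at 0 h at its promoter, 6.44-fold lower. Nab1, a corepressor of EGR factors, had 1.58, 1.89, 1.72 and 1.32 at 72 h and 7.45, 8.83, 10.5 and 10.7 at 0 h, 5.74-fold lower. The groups lay apart in all 4, which the choice of regions required. The other falls were at Paqr7, Tha1, Acp5 and Lysmd1, between 5.82-fold and 12.2-fold, and the region at Paqr7 is also among the 12 largest falls at any distance.

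**Figure D4:**
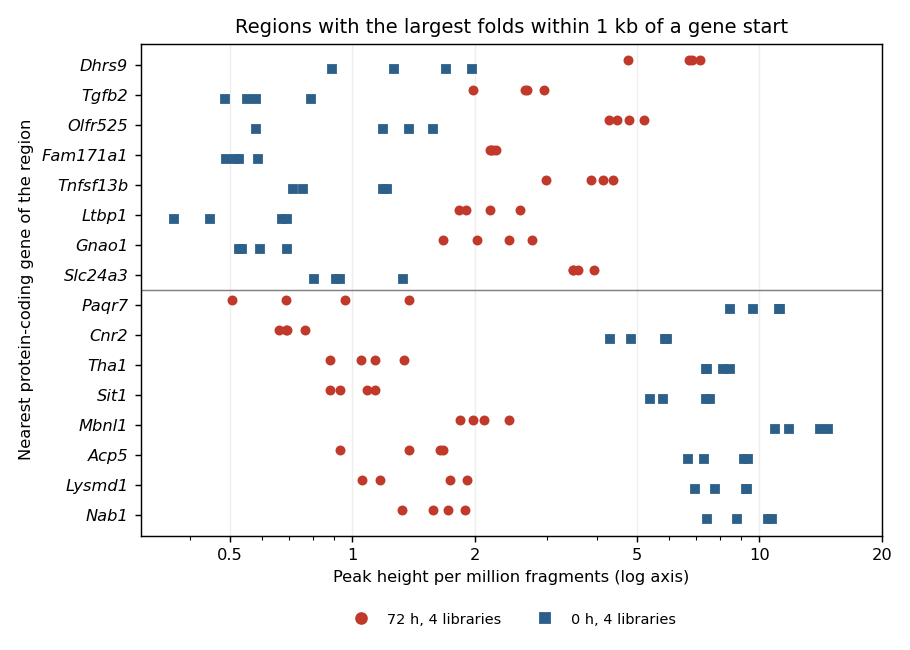
Heights in FPM on a log axis at 72 h (red circles) and 0 h (blue squares), 4 libraries each, for the 8 largest rises (above the grey line) and 8 largest falls (below it) within 1 kb of a gene start. The 8 rises lie at heights of 5 or less at 72 h except Dhrs9 and Olfr525, and the 8 falls at heights above 4 at 0 h. The choice of regions required groups that do not overlap.

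Promoter windows of the 2 directions differed in some of the letters they hold. Of 417 windows in regions higher on both scales, 6.24% held AP-1 letters (TGANTCA), of 5845 windows in regions lower on both scales 3.03%, of 4323 other windows in shared regions 4%, and of all 21263 RefSeq windows it was 6.13%. The ETS letters CCGGAAG were in 3.60% of the higher windows, 16.9% of the lower, 15.4% of the other and 8.98% of all. The NRF1 motif was in 2.88% of the higher, 9.56% of the lower, 9.95% of the other and 5.18% of all. For the remaining motifs the shares of the higher, lower, other and all windows follow in this order. The CRE TGACGTCA was in 2.40% (10 windows), 3.56%, 2.41% and 1.92%. The E-box CACGTG was in 10.3%, 9.68%, 8.28% and 6.63%, and CCAAT in 31.7%, 39.6%, 32.8% and 35.4%. RUNX TGTGGT was in 12.7%, 9.72%, 9.88% and 12.4%, and TCF CTTTGAT in 0.719% (3 windows), 2.48%, 1.67% and 2.82%. Both strands were searched, and each motif was counted on its own, so matches to different motifs may overlap. The median GC content was 62.8% in the higher windows and 61.2% in the lower. These shares describe the windows, and no test was made on them. A match is not shown to be bound, and a missing match says only that the letters are not in the window.

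Genes that hold the naive, quiescent state lost height at most of their regions. Of 174 shared regions nearest to the 20 genes of this list (within 100 kb), 9 rose and 135 fell in FPM, 5.17% and 77.6%, against 10.9% and 65.2% of all regions with a gene within 100 kb. The median log2 fold was −1.05, against −0.70 for all such regions. Relative to the library median 34 rose and 97 fell, 19.5% and 55.7%, against 28.7% and 39.7% of all, and the median was −0.45, against −0.11. At S1pr1, 11 of 14 regions fell in FPM and none rose, while at the chromatin organiser gene Satb1 12 of 13 fell. Ets1, which encodes a transcription factor of T cell homeostasis, had 11 of 15 regions lower. A region 19366 bp outside it had 1.22, 0.980, 0.995 and 0.855 at 72 h and 4.73, 5.76, 7.36 and 6.73 at 0 h, 6.04-fold lower (centred log2 fold −2.0, limma adjusted p = 8.04e-18). Foxp1, which encodes a factor of quiescence, had 4 regions higher and 17 lower of 30 in FPM, and 12 higher and 7 lower when centred. A region inside it had 1.78, 2.0, 2.57 and 2.26 at 72 h and 0.848, 0.793, 0.607 and 1.07 at 0 h, 2.62-fold higher, while another, 93763 bp from the start, had 1.86, 1.27, 1.88 and 1.28 at 72 h and 6.16, 6.72, 6.07 and 6.97 at 0 h, 4.19-fold lower.

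Genes of T cell identity and receptor signalling had 7 regions higher and 97 lower of 127 in FPM, 5.51% and 76.4%, against 10.9% and 65.2% of all regions with a gene within 100 kb. When centred, 28 were higher and 66 lower, 22% and 52%, against 28.7% and 39.7% of all. Their median log2 fold was −0.91 in FPM and −0.32 centred. Cd2, an adhesion receptor of T cells, fell at 7 of 7 regions in FPM and at 5 when centred. The region 505 bp outside it had 2.63, 2.18, 2.37 and 1.63 at 72 h and 8.83, 9.17, 11.4 and 11.0 at 0 h, 4.62-fold lower. Fyn, a kinase of receptor signalling, had 1 region higher and 10 lower of 12. Runx1, a factor of the T cell lineage, had 2 regions higher and 7 lower of 12 in FPM. A region inside it, 50553 bp from the start, had 2.96, 3.19, 3.37 and 3.27 at 72 h and 0.759, 0.793, 1.42 and 0.95 at 0 h, 3.37-fold higher. Nearer the start, at 3727 bp, another had 1.86, 1.96, 2.14 and 1.67 at 72 h and 7.59, 6.90, 9.30 and 10.8 at 0 h, 4.48-fold lower. Within 1 gene, then, the groups lay apart in opposite directions.

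Genes induced through the T cell receptor changed in FPM in shares close to those of all regions. Of their 99 regions, 11 were higher and 69 lower in FPM, 11.1% and 69.7%, against 10.9% and 65.2% of all. When centred, 29 were higher and 49 lower, 29.3% and 49.5%, against 28.7% and 39.7% of all. Cd44, an adhesion receptor of activated T cells, had 3 regions higher and 5 lower of 9. A region 79297 bp from its start had 4.54, 4.35, 5.63 and 4.86 at 72 h and 2.01, 2.24, 2.67 and 2.38 at 0 h, 2.09-fold higher, and a region at 10898 bp was 3.18-fold lower (centred log2 fold −1.08). Cd40lg, the ligand with which helper T cells activate B cells, had 8 of 9 regions lower in FPM and 6 lower and 1 higher when centred. The AP-1 list had 4 regions higher and 33 lower of 45 in FPM, 8.89% and 73.3%, and 10 higher and 25 lower when centred, 22.2% and 55.6%. Batf3, a BATF family factor, had 3 of 3 regions higher on both scales. Its most changed region had 2.39, 3.16, 2.49 and 2.57 at 72 h and 0.535, 0.483, 0.647 and 0.594 at 0 h, 4.69-fold higher (centred log2 fold 2.82, limma adjusted p = 2.88e-19). The promoter of Fos, a subunit of AP-1, had 4.38, 4.5, 3.68 and 3.58 at 72 h and 9.19, 10.1, 11.4 and 11.4 at 0 h, 2.62-fold lower and, relative to the library median, lower by 0.79 on the log2 scale. A region 42765 bp outside Fos was 1.78-fold higher (centred log2 fold 1.42).

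Of 61 regions at NF-κB family genes and their inhibitors, 5 rose and 41 fell in FPM, 8.2% and 67.2%, near the 10.9% and 65.2% of all regions. When centred, 17 rose and 27 fell, 27.9% and 44.3%, against 28.7% and 39.7% of all. Tnfaip3 encodes A20, an inhibitor of NF-κB signalling, and fell at 7 of 9 regions in FPM. A region inside the gene (chr10:18999014-19002633) had 0.608, 0.617, 0.766 and 0.622 at 72 h and 4.73, 4.21, 6.07 and 6.41 at 0 h, 8.11-fold lower (centred log2 fold −2.43, limma adjusted p = 6.08e-19). Nfkb1, which encodes the p50 subunit, had 2 regions higher and 4 lower of 12 in FPM, but 8 higher and 2 lower when centred. The promoter of Nfkbia, the IκBα gene, had 6.53, 5.70, 6.47 and 4.90 at 72 h and 11.3, 10.6, 15.2 and 14.7 at 0 h, 2.18-fold lower. Relative to the library median it was lower by 0.53 on the log2 scale (limma adjusted p = 1.24e-06), and under quantile normalization by 0.16 (limma adjusted p = 0.0891). A region 9374 bp outside Nfkbia was 1.35-fold higher with groups that overlapped, and this call was lost without library 1, 2 or 3 at 72 h or without library 1 or 4 at 0 h (limma adjusted p up to 0.206).

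Genes of effector T cells had larger shares of rises than all regions. Among all shared regions over 10 kb from a gene start, 17.3% rose in FPM and 39.9% when centred. Within 20 kb of the gene lay 23 of 32 Th2, 35 of 68 Th1 and 11 of 19 Th17 regions. Of all regions with a gene within 100 kb, 18547 of 25255 did. What place and height contribute to the shares of these lists was not tested. Th2 genes had 10 regions higher and 16 lower of 32 in FPM, 31.2% and 50%, against 10.9% and 65.2% of all. When centred, 15 were higher and 7 lower, 46.9% and 21.9%, against 28.7% and 39.7% of all. The Th2 median log2 fold was −0.41 in FPM and 0.18 centred. Il10, the gene of an anti-inflammatory cytokine, had 3 regions higher and 1 lower of 5. A region 1704 bp from its boundary, inside the gene, had 5.15, 4.90, 5.55 and 4.59 at 72 h and 1.61, 1.28, 1.86 and 1.23 at 0 h, 3.42-fold higher (centred log2 fold 2.37, limma adjusted p = 3.72e-20). Its fall, at 35081 bp, was 1.48-fold with groups that overlapped and was not called when centred (log2 fold 0.022). A region 19368 bp from Maf, a factor that drives Il4 and Il10, had 3.16, 3.59, 3.71 and 2.29 at 72 h and 0.625, 0.862, 0.971 and 0.831 at 0 h, 3.86-fold higher. The region at the boundary of Maf had 4.38, 4.72, 4.75 and 3.77 at 72 h and 8.57, 9.0, 9.91 and 9.78 at 0 h, 2.12-fold lower (centred log2 fold −0.49, limma adjusted p = 6.78e-06). Gata3, the master factor of Th2 cells, had no region higher and 4 lower of 5 in FPM. Its region 1826 bp from the start had 2.92, 2.47, 4.02 and 2.61 at 72 h and 5.98, 6.45, 6.43 and 7.16 at 0 h, 2.2-fold lower. The list name thus covers sites that moved in opposite directions, also within Il10 and Maf in FPM.

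Th1 and cytotoxic genes had 13 regions higher and 39 lower of 68 in FPM, 19.1% and 57.4%, against 10.9% and 65.2% of all regions. When centred, 25 were higher and 22 lower, 36.8% and 32.4%, against 28.7% and 39.7% of all. The list's shares of rises were near the 17.3% and 39.9% of all shared regions over 10 kb from a gene start. The median of this list changed sign with the scale, at −0.54 in FPM and 0.05 centred. Ifng, the interferon-γ gene, had 4 regions higher and 4 lower of 9. A region 29419 bp from its start had 2.07, 2.47, 2.26 and 1.67 at 72 h and 0.669, 0.586, 0.607 and 0.871 at 0 h, 3.10-fold higher. At 21209 bp another had 3.08, 2.69, 3.45 and 3.15 at 72 h and 9.50, 10.2, 12.5 and 11.9 at 0 h, 3.56-fold lower. Both changes passed the test when centred (2.23, limma adjusted p = 2.43e-15, and −1.24, limma adjusted p = 2.95e-15). Fasl, the gene of a death ligand, had 10 of 11 regions lower in FPM and 7 lower and 1 higher when centred. A region inside Stat4, which transmits interleukin-12 signals, had 3.45, 3.30, 3.48 and 3.38 at 72 h and 1.16, 1.34, 1.42 and 1.43 at 0 h, 2.55-fold higher. Another inside it, at 11374 bp, had 2.43, 2.32, 3.02 and 1.75 at 72 h and 5.09, 6.10, 6.8 and 7.32 at 0 h, 2.68-fold lower (centred log2 fold −0.83), and 2 regions of Stat4 were higher and 4 lower of 6 in FPM.

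Th17 genes had 19 shared regions, of which 5 rose and 8 fell in FPM, 26.3% and 42.1%, against 10.9% and 65.2% of all regions. When centred, 10 rose and 5 fell, 52.6% and 26.3%, against 28.7% and 39.7% of all. The Th17 median was 0.05 in FPM and 0.64 centred over genes within 100 kb, but −0.72 and −0.12 over the 11 regions within 20 kb. Il21, a cytokine of follicular helper and Th17 cells, had a region 26702 bp from its start with 4.30, 4.83, 4.29 and 3.54 at 72 h and 0.982, 1.45, 1.94 and 1.54 at 0 h, 2.93-fold higher. Its other shared region, at 26851 bp, had 1.62, 1.96, 2.03 and 1.05 at 72 h and 6.07, 7.76, 8.37 and 8.87 at 0 h, 4.77-fold lower. Both kept their direction when centred (2.14 and −1.66). A region 27692 bp from Ahr, the aryl hydrocarbon receptor gene, had 2.96, 2.90, 3.56 and 3.31 at 72 h and 0.491, 0.724, 0.850 and 0.752 at 0 h, 4.59-fold higher. The region at the boundary of Ahr had 2.63, 2.54, 2.34 and 2.02 at 72 h and 4.46, 6.17, 7.16 and 6.45 at 0 h, 2.52-fold lower (centred log2 fold −0.74, limma adjusted p = 2.0e-07). Regulatory T cell genes had 4 regions higher and 23 lower of 42 in FPM, 9.52% and 54.8%, so the share of rises was near that of all regions. When centred, 18 were higher and 10 lower, 42.9% and 23.8%. The medians were −0.48 in FPM and 0.11 centred. Near Lrrc32, which encodes the TGF-β docking receptor GARP, a region had 4.22, 4.39, 4.25 and 3.34 at 72 h and 0.982, 1.24, 1.17 and 1.11 at 0 h, 3.59-fold higher. The region at the boundary of Lrrc32 was 1.46-fold lower with groups that overlapped, was not called when centred (log2 fold 0.048), and lost its call in FPM without library 3 at 72 h (limma adjusted p = 0.0568) or library 3 at 0 h (limma adjusted p = 0.0621).

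**Figure D5:**
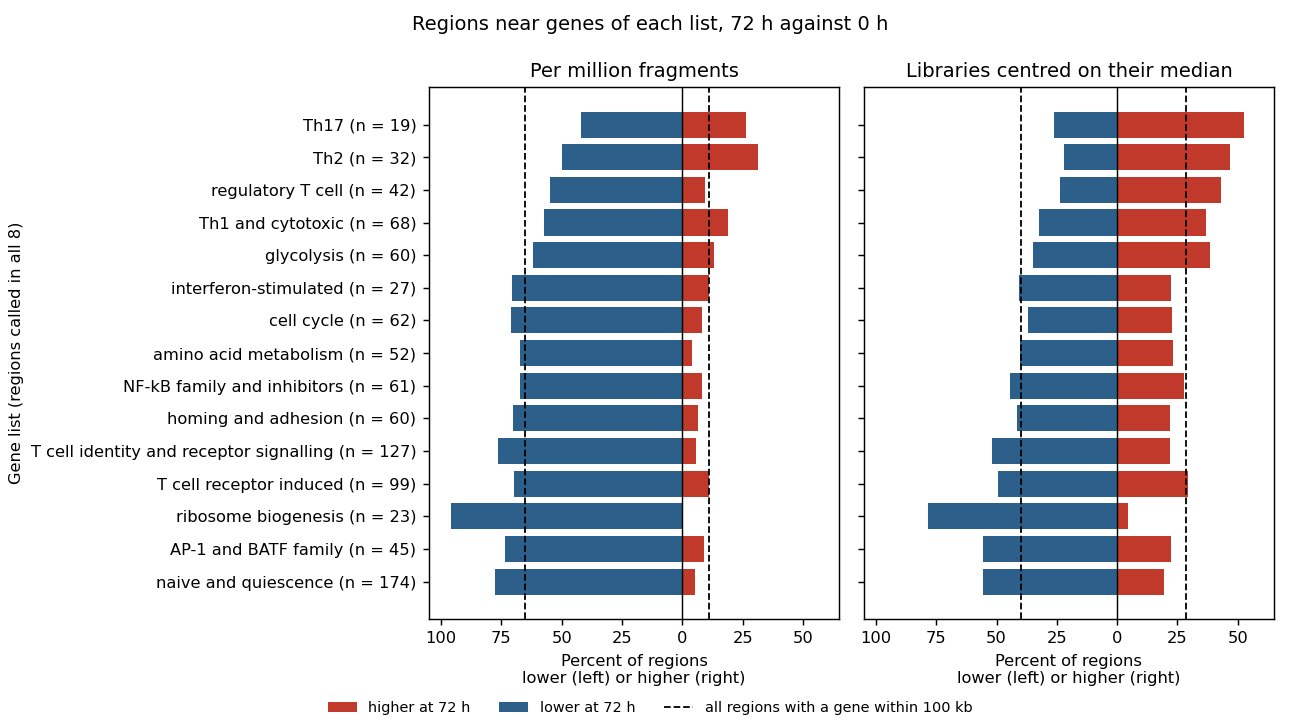
For each gene list, the percent of its regions called in all 8 libraries that were higher (red, right) or lower (blue, left) at 72 h is shown in FPM (left panel) and with libraries centred on their median (right panel), ordered by centred median fold, with n regions. Dashed lines give the same shares for all regions with a gene within 100 kb, 10.9% and 65.2% in FPM and 28.7% and 39.7% centred. The Th17, Th2, regulatory, glycolysis and Th1 lists lie at 36.8% or more against the centred line for rises at 28.7%, and all 5 have a larger share of falls than of rises in FPM.

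Ribosome biogenesis genes were lower at nearly all of their shared sites. Of 23 regions none was higher and 22 were lower in FPM (95.7%, against 65.2% of all regions), and 1 was higher and 18 lower when centred (78.3%, against 39.7%), with medians of −0.94 and −0.34. Of the 23, 21 lay within 20 kb of the gene. Among all shared regions within 1 kb of a gene start, 80.3% fell in FPM and 51.6% when centred. In the highest of the 5 height classes 95.1% fell in FPM and 73% when centred. What place and height contribute to the shares of this list was not tested. At the promoter of Nop58, a core protein of small nucleolar particles, heights were 2.35, 3.48, 2.22 and 2.80 at 72 h and 8.66, 8.38, 10.1 and 11.2 at 0 h, 3.56-fold lower. Cell cycle genes had 5 regions higher and 44 lower of 62 in FPM, 8.06% and 71%, and 14 higher and 23 lower when centred, 22.6% and 37.1%, nearer to the shares of all regions. A region 42275 bp from Cdk6, a kinase of the G1 phase, had 6.53, 6.02, 7.12 and 5.33 at 72 h and 2.28, 3.66, 3.44 and 3.29 at 0 h, 2.0-fold higher, while the region at its start was 1.65-fold lower in FPM and not called when centred (log2 fold −0.13). A region 12516 bp from Ccne1, the cyclin E1 gene, had 1.46, 1.12, 1.38 and 0.972 at 72 h and 5.35, 6.97, 7.04 and 6.57 at 0 h, 5.29-fold lower. In the distal Cdk6 region and the Ccne1 region the groups lay apart.

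Glycolysis genes had 8 regions higher and 37 lower of 60 in FPM, 13.3% and 61.7%, against 10.9% and 65.2% of all regions. When centred, 23 were higher and 21 lower, 38.3% and 35%, against 28.7% and 39.7% of all, and the medians were −0.59 and 0.006. Pfkfb3, which makes an activator of phosphofructokinase, had both. The region at its start had 2.92, 2.43, 3.14 and 2.49 at 72 h and 5.58, 9.03, 8.54 and 10.5 at 0 h, 3.0-fold lower, and a region 71974 bp away had 3.57, 4.54, 4.13 and 2.64 at 72 h and 1.16, 2.1, 1.86 and 1.54 at 0 h, 2.24-fold higher. Amino acid genes had 2 regions higher and 35 lower of 52 in FPM (3.85% and 67.3%) and 12 higher and 21 lower when centred (23.1% and 40.4%). A region 5492 bp from Got1, a transaminase gene, had 1.99, 2.1, 1.80 and 1.75 at 72 h and 9.28, 11.8, 11.7 and 11.4 at 0 h, 5.78-fold lower. Homing and adhesion genes had 4 higher and 42 lower of 60 in FPM (6.67% and 70%) and 13 higher and 25 lower when centred (21.7% and 41.7%). Interferon-stimulated genes had 3 higher and 19 lower of 27 in FPM (11.1% and 70.4%), and 6 higher and 11 lower when centred (22.2% and 40.7%). A region 9287 bp from the start of Ifit1, an antiviral gene, had 1.62, 2.47, 2.83 and 1.79 at 72 h and 0.714, 0.759, 1.09 and 0.871 at 0 h, 2.50-fold higher. The other region of Ifit1, at 20990 bp, was 1.52-fold lower in FPM and not called when centred (log2 fold −0.012).

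Many genes held sites that changed in opposite directions. Of 5622 genes nearest to at least 2 shared regions, 1305 had at least 1 region higher and 1 lower in FPM, and 2010 did when centred. When centred, 1404 had only rises among their changed regions, 1845 only falls and 363 no call. A gene with more regions can more easily hold both directions, and these counts were not adjusted for the number of regions. The genes with the most calls were picked after their values were seen. Of all regions with a gene within 100 kb, 10.9% rose and 65.2% fell in FPM, and 28.7% rose and 39.7% fell when centred. Ptpn13, a phosphatase gene, had 6 of 9 regions higher in FPM and 9 of 9 when centred, and Tet2 had 5 of 7 higher in FPM and 6 when centred. Rasgrp1, which activates Ras below the T cell receptor, had 6 higher and 5 lower of 15 in FPM and 10 higher and 3 lower when centred. Chd7, a chromatin remodeller gene, had 15 of 17 lower in FPM and 12 when centred, and the protein kinase C genes Prkch and Prkcq had 12 of 21 and 10 of 14 lower when centred.

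More regions had peaks at 72 h alone than at 0 h alone. Of the whole union, 12007 regions were called in all 4 libraries at 72 h and in none at 0 h (12.1%), and 2814 in all 4 at 0 h and in none at 72 h (2.84%). Few of them lay at promoters: 7.59% of the complete gains and 2.73% of the complete losses were within 1 kb of a gene start, against 40.4% of the shared regions and 15.6% of the union. An uncalled region is below the calling threshold and not shown to be closed. Over 56847 regions called in at least 4 libraries, on the scale log2(height + 0.5), limma called 19064 higher (33.5%) and 23092 lower (40.6%), and when centred 25432 higher (44.7%) and 15597 lower (27.4%). A region called in all 4 libraries of 1 time alone passes this filter only through the time at which it is high, so these counts are a description and add nothing to the complete gains and losses. Without any 1 library at 72 h, 5943 to 7064 regions were called higher and 21695 to 22750 lower in FPM.

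Among complete gains, the region with the highest heights lay 46682 bp outside Map3k7cl. It had 7.54, 8.89, 8.27 and 6.53 FPM at 72 h and no peak at 0 h. If an uncalled region is taken to be below the lowest height listed for any peak of a 0 h library (0.402 in the library where it was highest), it was at least 16.3-fold higher, but a peak can go uncalled above that height where the local background is high. The next nearest genes were Rgs21, Upp2, Gad2, Ypel5, Chst2, Bank1 and Lrrc72, at least 12.8-fold to 13.6-fold higher by the same limit. Among complete losses, a region 43793 bp from Bhmt had no peak at 72 h and 8.61, 9.34, 11.6 and 10.9 at 0 h, at least 24.6-fold lower against a limit of 0.350. A region inside Stat5b, which transmits interleukin-2 signals, had no peak at 72 h and 7.23, 7.10, 9.95 and 8.35 at 0 h, at least 20.3-fold lower. A region 76759 bp from Btg1, an antiproliferative gene of quiescent cells, had no peak at 72 h and 7.05, 7.69, 9.43 and 9.46 at 0 h, at least 20.1-fold lower. The others were near Vps37b, Plcxd2, H60b, Adamts14 and Mgst2. By rule, all of these are called in 4 libraries of 1 time and in none of the other.

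The changes recurred in the IRF5-/- libraries, which share none with the wild-type comparison. Peaks were called in all 15 libraries at 21170 regions. There, with centred libraries, 6400 regions rose (30.2%) and 7150 fell (33.8%) in wild type by limma, and 6075 rose (28.7%) and 6792 fell (32.1%) in IRF5-/- cells. Of the 6400 wild-type rises, 97.8% had the same sign in IRF5-/- cells and 81.9% were called there, which made up 86.2% of the IRF5-/- rises. Of the 7150 wild-type falls, 98% had the same sign and 81.1% were called, 85.4% of the IRF5-/- falls. IRF5-/- library 3 at 0 h had the fewest peaks (29994), and without it 5686 regions rose (26.9%) and 6248 fell (29.5%), so that 78.8% of the wild-type rises and 77.1% of the falls were called. In FPM, 880 regions rose (4.16%) and 3720 fell (17.6%) in IRF5-/- cells, and without that library 1343 rose (6.34%) and 15989 fell (75.5%), against 1523 (7.19%) and 15696 (74.1%) in wild type. Of the 1523 wild-type rises in FPM, 99.9% had the same sign and 55.5% were called in IRF5-/- cells, and 74.6% were called without that library. Of the 15696 falls, 96.1% had the same sign and 23.7% were called, and 95.8% were called without that library.

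The difference between the genotypes in their response was tested by the interaction of genotype and time in limma over all 15 libraries. It gave 0 calls in FPM, with 454 regions (2.14%) at an unadjusted p under 0.05, and 1 call when centred (0.00472%), with 1854 (8.76%) at an unadjusted p under 0.05. At the S1pr1 region, IRF5-/- libraries had 0.979, 1.66, 1.02 and 1.45 at 72 h and 14.7, 7.42 and 17.1 at 0 h, a centred log2 fold of −2.84 (limma adjusted p = 5.52e-20). The Ezh2 region had 4.89, 5.37, 5.72 and 5.57 at 72 h and 0.847, 0.497 and 1.36 at 0 h, a centred fold of 3.16 (limma adjusted p = 6.16e-21). At Gstcd the region had 8.05, 7.59, 9.31 and 8.51 at 72 h and no peak in the 3 libraries at 0 h. In all 3 regions the activated and untreated IRF5-/- libraries lay apart in the same direction as in wild type.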

How the data were processed

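ATAC-seq peak lists of 15 single libraries were used. Per the submitters' processing notes, Trim Galore 0.5.0, Bowtie2 2.2.9, MACS2 and HOMER 4.10.4 were used on mm10. Per the file headers, MACS2 2.1.1.20160309 ran on the read pairs of each library without a control, with a q value cutoff of 0.05 and 1 fragment kept at any position. The deposited pileup is MACS2's fragment coverage signal at a peak's summit, and the deposited −log10 q is MACS2's score of the peak, used only to filter peaks in an alternative. The lists of merged replicates and final peaks were not used.

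Pileup was divided by the M of fragments after filtering given in the file headers (FPM). Being a coverage signal, it was tested with limma 3.58.1 (eBayes with trend, two-sided, Benjamini-Hochberg over all regions of a fit, calls at an adjusted p under 0.05) in R 4.3.3, on log2 heights without a pseudocount in regions called in all 8 wild-type libraries and with a pseudocount of 0.5 in those called in at least 4. In the FPM fit limma took the spread of each region from a curve of spread against mean height (infinite prior degrees of freedom), which makes its adjusted p-values extremely small. The SE printed with a fold in FPM comes from this curve and not from the region's own libraries. Adjusted p-values of the FPM fit with all 8 libraries are used only as a threshold. The adjusted p printed with a wild-type fold is that of the centred fit (44.5 prior degrees of freedom). Those printed for a left-out wild-type library are from FPM fits, and those printed for quantile normalization are from that fit. Values of libraries were compared by two-sided exact permutation with adjustment over 4.

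Gene starts and promoter windows came from RefSeq for GRCm38.p6, where 17492 of 21887 protein-coding genes have a start. Other genes were placed by their boundary, and 758 shared regions on chromosome 18 were left out of the place classes. A region was assigned to the nearest protein-coding gene within 100 kb, which covered 93.4% of the shared regions. A region described as inside its nearest gene overlapped the body of a protein-coding gene, which was not checked to be that same gene. Named regions were the 12 largest in each direction, the 8 largest within 1 kb of a start, up to 4 genes per list with the most calls, and the 8 tallest complete gains and losses, passing over unnamed gene models. The 12 and the 8 largest were taken only from called regions whose groups did not overlap. Only some regions of the list genes are described. The compared libraries, gene lists and rules were chosen with earlier results of these data known, so lists are described by counts beside those of all regions.

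Alternatives were the scaling, the pseudocount, stricter peaks, the overlap, single-peak regions, the variance model, the libraries in the fit, autosomes only, the distance classes, a block for the replicate number, and fits that leave out 1 library in turn.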

Additional observations from a re-analysis of the deposited data

Results flagged for a closer look

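Of 270 groups of 4 values examined, 11 had a library far from the other 3, and chance flags about 1 in 20. Library 1 at 0 h had 39807 peaks, fewer than the other 3 libraries at 0 h, which had 47625 to 47790. In the complete gain at Lrrc72, library 3 at 72 h stood at 7.70 FPM (7.695), above 5.13 to 5.55 in the other 3. In the region inside Tnfaip3, library 3 at 72 h stood at 0.766, above 0.608 to 0.622. Near Lrrc32, library 4 at 72 h stood at 3.34, below 4.22 to 4.39. Near Got1, library 1 at 0 h stood at 9.28, below 11.4 to 11.8. In the region inside Cd247 that rose, library 4 at 0 h stood at 1.27, below 1.83 to 1.94. In the fall outside Cd44, library 4 at 72 h stood at 0.817 (0.8165), below 0.957 to 0.98. In the rise outside Fos, library 1 at 0 h stood at 1.03 (1.026), below 1.38 to 1.43. Outside Nfkbia, library 4 at 72 h stood at 1.17 (1.167), below 1.99 to 2.03. In the fall at Il10, library 1 at 72 h stood at 2.11, above 1.40 to 1.49. In the fall outside Ccr8, library 4 at 0 h stood at 6.73, above 5.34 to 5.44. Except at Nfkbia and Il10, every library at 72 h still lay on the same side of every library at 0 h in these regions.

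The response to activation was called different between genotypes in 1 of the 21170 regions called in all 15 libraries when centred. In FPM it was called in 0. Regions without a call are not shown to respond alike. The 1 called region was nearest to Ctif, at chr18:75419010-75420097. Its heights were 4.34, 4.21, 4.02 and 3.19 FPM in wild type at 72 h and 10.1, 10.2, 13.6 and 13.4 at 0 h. In IRF5-/- libraries they were 2.18, 1.74, 2.26 and 2.11 at 72 h and 11.2, 5.66 and 12.1 at 0 h. The centred log2 fold was −0.80 in wild type and −1.69 in IRF5-/- cells, and the wild-type fold minus the IRF5-/- fold was 0.88 ± 0.14 (SE, limma interaction, adjusted p = 0.00219). Without IRF5-/- library 3 at 0 h the adjusted p was 0.0457.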

How the results depend on the processing

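In the shared regions, 3140 rose and 17349 fell in FPM. With centred libraries 8029 rose and 10589 fell (median log2 fold −0.10), and with quantile normalization 7521 rose and 8474 fell (median −0.043). When a peak had to cover at least 0.5 of a region, which leaves fewer regions, 1007 rose and 11317 fell, and in regions called in at least 4 libraries 12484 rose. A pseudocount of 1 gave a median of −0.49 by construction. Leaving out each library from the centred fit, an alternative chosen after seeing the data, gave 7578 to 8266 rises, 10387 to 11442 falls and medians of −0.12 to −0.10. Leaving out each library in FPM gave 2786 to 3499 rises, 16414 to 18333 falls and medians of −0.73 to −0.62. In regions called in at least 4 libraries, leaving out each library gave 5943 to 19037 rises, with 5943 to 7064 for those at 72 h, because a site called in the 3 remaining libraries alone then fails the filter. Differences between libraries at 72 h and 0 h kept their sign when any library was left out, with exact p = 0.0571, the smallest that 3 against 4 allows: 18342 to 22597 peaks, 5.30 to 7.25 Mb, −0.67 to −0.52 in median log2 height and −0.53 to −0.45 in promoter minus distal height. With a −log10 q of at least 5 the difference in Mb was 4.59 (exact permutation p = 0.0571). Near gene starts 79.2% of regions fell when measured to gene boundaries, and 77.2% fell and 6.04% rose within 5 kb. In FPM in IRF5-/- cells, 1343 regions rose and 15989 fell without library 3 at 0 h, against 880 and 3720 with it. Without any 1 library, 12152 to 14675 regions were gained completely. The cause of these shifts was not tested where none is given. For the 123 shared regions that the naming rule picks, whether or not their values are printed, 3217 of 3300 alternatives kept direction and call, 55 lost the call and 28 changed sign, in 16 regions. The sign changed when centred, with or without the replicate block, for the falls at Il10 (0.022), Lrrc32 (0.048) and Ifih1 (0.054), and under quantile normalization for those at Stat3 (0.038), Cdk6 (0.12) and Usp18 (0.14). Leaving out each library, in FPM or centred, gave −0.70 to 0.081 at Il10, −0.72 to 0.17 at Lrrc32, −0.72 to 0.086 at Ifit1 and −0.65 to 0.13 at Ifih1. The other regions that lost a call were at Nfkbiz, Nfkb1, Nfkbia (both of its regions), Maf (−0.14 under quantile normalization, limma adjusted p = 0.14), Ccnd2, Pfkp (both of its regions) and Slc16a1. Leaving out a library ended calls in FPM at Lrrc32, at Nfkbia (its rise, limma adjusted p up to 0.206) and at Nfkb1 (its rise, limma adjusted p = 0.0671 without library 3 at 72 h and 0.0523 without library 3 at 0 h). Same-numbered libraries did not deviate together (correlations of −0.06, −0.06, 0.04 and 0.01), so the numbers were not taken as pairs. A replicate block gave 3063 rises and 16973 falls in FPM and 8033 rises and 10529 falls with centred libraries (median −0.10). Depth of 22.4 M to 29.0 M fragments limits the calling of low peaks, since the lowest listed pileup was 8 to 10 fragments.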
